A study of Rattus norvegicus with 3 samples.

Results

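The control array of the series was described on its own: which genes and gene families of blood mononuclear cells gave the brightest signals, and where the marker genes of each blood lineage stood among them. All genes with exactly 1 gene symbol on a probe set were taken, the brightest probe set stood for a gene with several, and the genes were ranked by the deposited intensity on that array. This gave 13893 genes, each with 1 value on 1 of the 3 arrays of the series. The study measured RNA of peripheral blood mononuclear cells from male Sprague-Dawley rats, 2 months old, on an Affymetrix rat expression array, with 1 array each for a control group, a downhill treadmill group and an uphill treadmill group. Only the control group is described; the other arrays serve to show how steady its ranks are. Per the labels the cells came from a mixture whose makeup and number of rats the labels do not give. With 1 array there is no replicate spread, so no SD or p-value is given, and the number of arrays limits the precision.

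Peripheral blood mononuclear cells are the lymphocytes and monocytes that stay above a density cushion when blood is spun. T cells recognise antigen through a receptor coupled to the CD3 chains, B cells through a surface antibody coupled to CD79, NK cells and cytotoxic T cells kill with perforin and granzymes, and monocytes take up microbes and give rise to macrophages. Platelets, the cell fragments that seal wounds, are lighter still and commonly come along with this layer, whereas red cells and most neutrophils sink. Platelets have no nucleus and carry RNA made in megakaryocytes, their parent cells in the bone marrow.

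An intensity is the fluorescence of a probe set after the authors' RMA normalization, on a linear scale. Probe sets bind with different strength, so a rank orders fluorescence and not numbers of transcripts. Genes with several probe sets show how far readings of the same gene can lie apart, though the part of binding strength in this was not tested. In 1996 genes with at least 2 probe sets called present, the brightest exceeded the dimmest by a median of 2.7-fold, and by over 4-fold in 33.3% of them. The extreme was Cop1, a ubiquitin ligase, with 3673 and 25.28, which is 145.29-fold. Cul3, a ubiquitin ligase scaffold, followed with 79.74-fold, Rpl28, a ribosomal protein, with 79.54-fold, Gng11, a G protein subunit of platelets, with 74.42-fold, and Atp5if1, the inhibitor of the mitochondrial ATP synthase, with 68.8-fold. Neighbours in the ranking are therefore not told apart, and the lists below are described by their counts.

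Intensity fell from 33332 at rank 1 through 25872 at rank 10 and 11198 at rank 100 to a median of 362.22. The 100 brightest genes are 0.720% of all, and the 1389 genes of the brightest decile held 53.1% of the summed intensity. All of the 100 brightest were called present, against 62.5% of all genes, where a call of present, marginal or absent is the authors' verdict on detection. Of these, 87 were again among the 100 brightest on the downhill array and 89 on the array of the uphill group. The gene at rank 100 was Gstp1, a glutathione transferase, with 11198, and Rac2, a GTPase of blood cells, stood just outside with 11113. Every list below is to be read against the shares over all genes, 62.5% called present and 10.0% in the brightest decile.

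**Figure D1:**
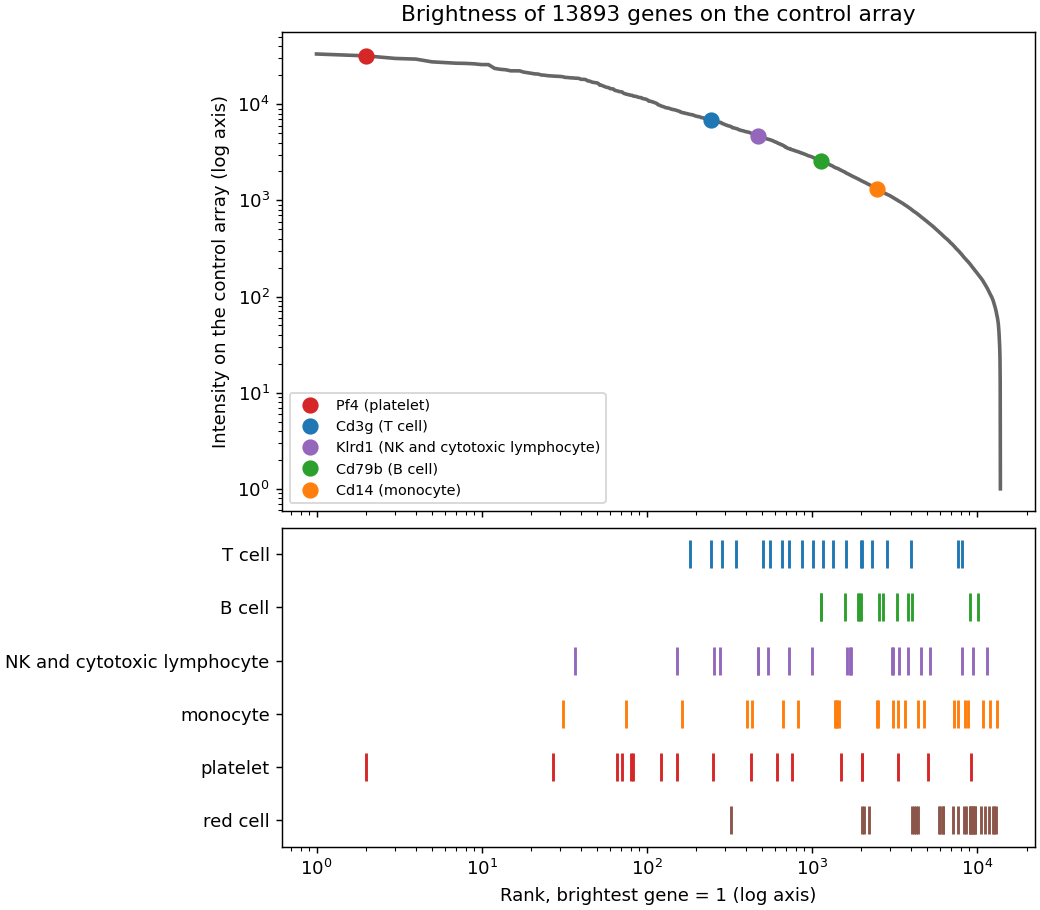
Intensity of each gene on the control array against its rank, both on log axes, with 5 marker genes as coloured points and, below, a tick for each member of 6 lineage lists. Pf4 of platelets stood at rank 2, Cd3g at 246, Klrd1 at 473, Cd79b at 1145 and Cd14 at 2468, and the platelet ticks reach farthest to the left.

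The brightest gene of the control array was Npy, with 33332. Neuropeptide Y is best known as a transmitter of sympathetic nerves, and in the rat it is also made by megakaryocytes and carried by platelets. It ranked first on the downhill and uphill arrays too. Its probe set aligned to chr4:78038012-78045187 on the plus strand of the Rnor3.4 assembly, per the deposited annotation. Pf4, the platelet chemokine stored in alpha granules, came second with 31873, and its probe set aligned to chr14:18812415-18813318 on the minus strand. Pla2g2a, a secreted phospholipase that platelets also store, stood at rank 13 with 23092, and Clec1b, the platelet receptor for podoplanin, at rank 27 with 19659. Several of the brightest signals of a preparation labelled as mononuclear cells thus belonged to genes known from platelets.

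The rest of the 30 brightest genes came mostly from the machinery that every cell uses. B2m, the light chain of MHC class I, had 29969. Transcripts of the mitochondrial genome followed, namely COX1 with 29488, COX2 with 26733, CYTB with 26342, ND1 with 25872 and ND2 with 23608, all subunits of the respiratory chain. Pabpc1, which binds poly(A) tails, had 27621, but its dimmest present probe set was 66.12-fold lower. Tmsb4x, which holds actin monomers, had 27129, and Actb, the cytoplasmic actin, had 20609.

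Tax1bp1, an autophagy adaptor, had 26615, Ubb, a polyubiquitin, 20064, Stmp1, a small mitochondrial protein, 20700, and Nubp2, an iron-sulfur cluster assembly factor, 19603. The other probe set of Stmp1 read only 1969 and that of Nubp2 only 1655, both called present. S100a9, a calcium-binding protein abundant in neutrophils and monocytes, had 19855. The remaining 12 were ribosomal proteins, led by Rps29 with 25860, and Lyz2, the lysozyme of monocytes and neutrophils, came next at rank 31 with 19338.

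Cytosolic ribosomal protein genes filled the top of the ranking more than any other family examined. Of 40 with a probe set of 1 symbol, 33 were among the 100 brightest genes. A further 46 ribosomal protein symbols stood only on probe sets with several symbols and are not counted. All 33 lay between rank 11 and rank 72, and the next member was Rpl30 at rank 2139 with 1512, not called present. The other members outside were Rpl7l1, Rpl26l1, Rps13, Rpl3l, Rps4y2 and Rpl39l1. For Rpl30 and Rps13 this low standing rests on the row used. Each also has a row shared with other symbols, called present, which read 17252 for Rpl30 and 19206 for Rps13. In the deposited gene ontology annotation, 35.5% of the annotated top 100 carried the term ribosome, against 1.16% of all genes. The count depends on the rows used. Probe sets with several symbols were left out by the ranking rule and many of those name ribosomal proteins, and with such rows kept, 58 of the 100 brightest were ribosomal protein genes. With the median of a gene's rows in place of the brightest the count was 29.

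Messenger RNAs of ribosomal proteins are known to begin with a C followed by a run of pyrimidines, through which growth signals control their translation. The start regions of the 4 brightest ribosomal protein genes with a pyrimidine run at the annotated start are printed, from 25 bases before to 15 bases after the annotated start, with the pyrimidine run that spans the start in capitals. They are RefSeq sequences of the GRCr8 assembly, at chr18:56498235-56498274 on the plus strand for Rps14, chr1:172974548-172974587 on the plus strand for Rpl27a, chr10:83519039-83519078 on the plus strand for Rpl19 and chr7:10068101-10068140 on the minus strand for Rps15.
Rps14: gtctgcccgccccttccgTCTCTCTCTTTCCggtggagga
Rpl27a: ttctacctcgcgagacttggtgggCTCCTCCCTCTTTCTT
Rpl19: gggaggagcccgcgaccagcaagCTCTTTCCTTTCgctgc
Rps15: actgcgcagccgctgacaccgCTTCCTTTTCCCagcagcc
The 4 were picked for having the run. That of Rpl27a is 20 bases long and goes on past the printed window, and its annotated first base is a T, while the first base of the other three is a C. Among brighter genes than Rps15, Rpl26 and Rps6 had no pyrimidine at the annotated start and Rpl5 had a run of only 2. A run of at least 6 stood at the start of 12 of 29 matched ribosomal protein genes, 41.4%, against 7.01% of 11021 matched promoters of all genes. Over the whole brightest decile the share was 6.87%. The annotated start need not be the one these cells use.

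Translation factors were bright but less uniformly so. Of 50 on the array, 48 were called present and 24 were in the brightest decile, which holds 10.0% of all genes. Eef1g and Eef1b2, subunits of the elongation factor that delivers aminoacyl-tRNA, had 11729 and 11428, and Eif3f, an initiation factor subunit, had 8542. All 73 mitochondrial ribosomal protein genes were called present, yet only 3 reached the brightest decile. The brightest of them was Mrpl33 with 3346, followed by Mrpl53 with 2446 and Mrpl57 with 2200. The cytosolic and mitochondrial ribosomes thus occupied different parts of the ranking, with median percentiles of 99.7 and 70.3, where 100 is the brightest.

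Of 7 genes of the mitochondrial genome, 6 were among the 50 brightest genes, down to ND3 with 16694. ND4, another subunit of complex I, read 31.83 and was called marginal. The nuclear genes of oxidative phosphorylation counted 34 of 73 in the brightest decile, led by Ndufa1 of complex I with 12347, the ATP synthase inhibitor Atp5if1 with 8257 and the ATP synthase subunit Atp5f1e with 7225. In glycolysis, 6 of 14 were in the brightest decile, with Gapdh at 13969, Aldoa, an aldolase, at 8174 and Ldha, a lactate dehydrogenase, at 7685, while the glycolytic kinase gene Pgk1 read 77.1 and was called absent.

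The genes of the actin cytoskeleton were uniformly bright. All 28 members were called present and 26 were in the brightest decile. After Tmsb4x and Actb came Myh9, the heavy chain of non-muscle myosin, with 11699.

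Genes of antigen presentation were bright in both MHC classes, in unequal shares. Of 8 MHC class II genes, 7 were in the brightest decile, with the invariant chain Cd74 at 14487, the alpha chain RT1-Da at 12881 and RT1-Ba at 5429. Of 14 class I genes only 4 were, with B2m at 29969, the heavy chain RT1-CE12 at 8062 and RT1-T24-3 at 3567. Class I heavy chain genes vary between rat strains and resemble each other closely, so the level of a single heavy chain gene is uncertain. A row shared by RT1-A2, RT1-A3 and RT1-EC2 stands outside the ranking and read 12522, above RT1-CE12, so the class I count leaves out a bright heavy chain signal. All 38 proteasome genes were called present and 15 were in the brightest decile. They were led by Psme1 of the activator cap with 7742 and by Psmb8, an immunoproteasome subunit, with 6500, ahead of Psmb4 of the core with 6103.

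**Figure D2:**
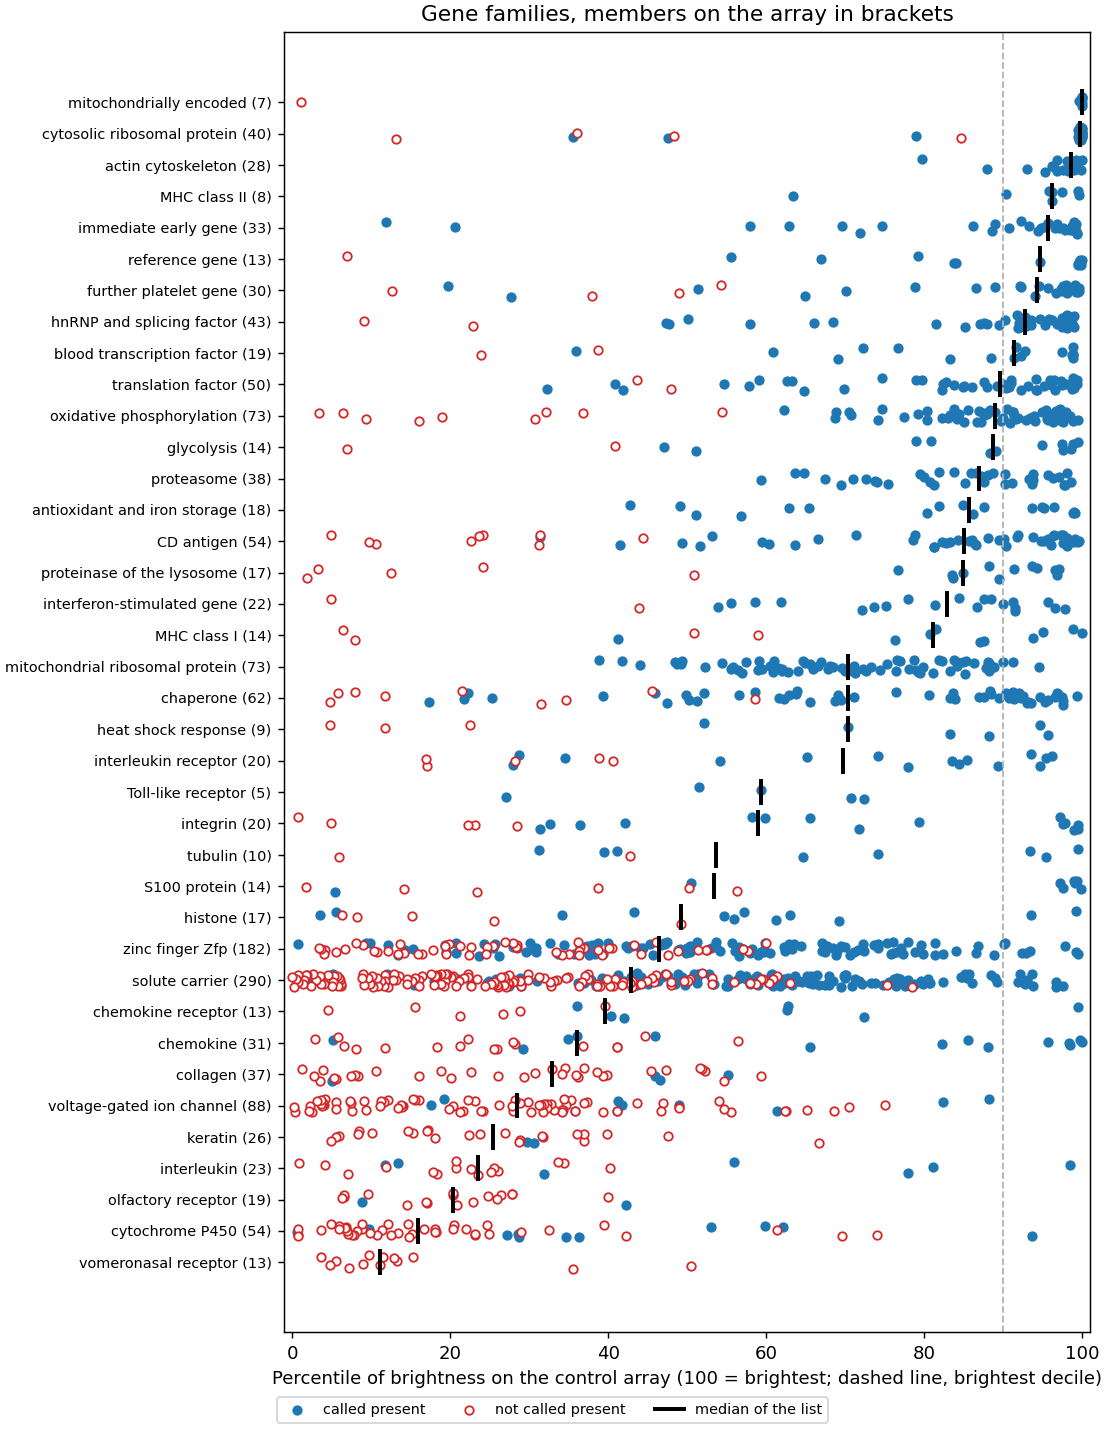
Percentile of brightness of each member of 38 gene families on the control array, from 0 to 100 for the brightest, with filled points for members called present, open points for the others and a bar at the family's median. Ribosomal protein and actin genes crowd the bright end, with medians of 99.7 and 98.6, and vomeronasal receptor genes have a median of 11.1.

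Platelet markers ranked highest of the 6 lineages. Of 18 members on the array, 17 were called present, 12 were in the brightest decile and 6 were among the 100 brightest, and the median percentile was 97.6. After Pf4 and Clec1b came Itga2b and Itgb3, the chains of the fibrinogen receptor, with 13751 and 12424, and Gng11 with 13433. Treml1, a receptor of alpha granules, had 12178. Ppbp, the other main chemokine of alpha granules, was much dimmer at 1594, and the adhesion receptor Selp read 215. Sparc, a matrix protein that platelets carry, read 998 and was not called present. On the downhill and uphill arrays Pf4 ranked 5 and 4.

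A second list of platelet genes was drawn up after these ranks had been seen, so it shows no more than where its members stood. Of 30, 26 were called present and 18 were in the brightest decile. Coagulation factor F5 had 15604, the myosin light chain Myl9 had 15414 and the tetraspanin Cd9 had 12019. Genes of arachidonate use were bright, with the cyclooxygenase Ptgs1 at 6283 and the lipoxygenase Alox12 at 5358, and so were the serotonin transporter Slc6a4 at 4758 and the vesicular amine transporter Slc18a2 at 2655. In these bulk samples, more cells or fragments of a type and more RNA in each cannot be told apart.

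The promoters of 2 of these platelet markers and of Npy, the brightest gene, are printed as examples of the bright end of the ranking, picked after the ranks had been seen. Each runs from 200 bases before the annotated start up to it, in RefSeq's GRCr8 assembly, at chr10:87925834-87926033 on the minus strand for Itga2b, chr4:164533909-164534108 on the plus strand for Clec1b and chr4:80211911-80212110 on the plus strand for Npy. Capitals mark matches on either strand to any of the 7 motifs searched, which were the TATA box core TATAAA, the CCAAT box, the Sp1 core GGGCGG, the ETS core TTCCGG, the pyrimidine motif CTTTCC, and the GATA motifs AGATAA and, in the later search, TGATAA.
Itga2b: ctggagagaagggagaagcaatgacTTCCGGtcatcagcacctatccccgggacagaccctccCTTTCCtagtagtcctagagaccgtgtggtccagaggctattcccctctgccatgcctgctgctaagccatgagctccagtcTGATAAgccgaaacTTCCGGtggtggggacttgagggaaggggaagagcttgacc
Clec1b: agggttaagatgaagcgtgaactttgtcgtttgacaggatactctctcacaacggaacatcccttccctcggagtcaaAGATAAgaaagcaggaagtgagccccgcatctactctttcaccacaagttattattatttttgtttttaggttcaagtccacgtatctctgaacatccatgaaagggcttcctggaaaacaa
Npy: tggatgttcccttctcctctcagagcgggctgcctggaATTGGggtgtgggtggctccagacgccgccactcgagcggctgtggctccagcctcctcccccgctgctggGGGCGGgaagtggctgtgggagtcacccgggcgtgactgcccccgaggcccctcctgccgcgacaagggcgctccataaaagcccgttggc
GATA factors, which direct megakaryocyte and red cell genes, are known to bind both of the last-named motifs. The motif AGATAA stood within 250 bases before the start in 3 of 13 matched platelet markers, 23.1%, and in 5 of 18 red cell markers, 27.8%, against 6.44% of all matched promoters. TGATAA was added to the search after the AGATAA matches and the Itga2b sequence had been seen, and with both motifs the counts were 5 of 13 and 8 of 18, against 10.1% of all. In the second platelet list 4 of 24 held either, 16.7%. Lists of other cells had like or higher shares: either motif stood in 4 of 9 basophil and mast cell, 3 of 7 neutrophil, 7 of 16 olfactory receptor and 4 of 11 vomeronasal receptor promoters, and AGATAA alone in 3 of 7 neutrophil and 2 of 7 dendritic cell promoters. Nothing particular to the platelet and red cell lists is therefore read from these counts. A match is a description of these letters and not a binding site.

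T cell markers came next. Of 20 on the array, 19, or 95.0%, were called present and 12, or 60.0%, were in the brightest decile. All genes had 62.5% and 10.0%. The median percentile of the list was 92.1. The transcription factor Tcf7 led with 7879, followed by the CD3 chain Cd3g with 6820, the kinase Lck with 6292 and the CD3 chains Cd3e with 5588 and Cd3d with 4502. Cd8a, a chain of the coreceptor of cytotoxic T cells, had 3757. Cd4, the coreceptor of helper T cells, read 299 and was called absent, and Cd28, the costimulatory receptor, read 272 although called present. The given marker Cd3g kept a rank between 241 and 269 on all 3 arrays.

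Among NK and cytotoxic lymphocyte markers, 19 of 21, or 90.5%, were called present and 9, or 42.9%, were in the brightest decile. All genes had 62.5% and 10.0%. The median percentile of the list was 87.7. The chemokine Ccl5 led at rank 37 with 18660. Gzmk, a granzyme, had 8580, the pore-forming perforin Prf1 6700, the granule protein Nkg7 6488 and the lectin receptor Klrd1 4677. Most of these genes are shared by NK cells and cytotoxic T cells. Ncr1, the member most particular to NK cells, read 673, and the chemokine Xcl1 with 268 and the receptor Klrc1 with 201 were called absent. Across the 3 arrays Klrd1 ranked from 473 to 672.

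B cell markers were present but dimmer. Of 13, 12, or 92.3%, were called present, against 62.5% of all genes. Only Ms4a1, which encodes CD20, with 2582 and Cd79b with 2569 were in the brightest decile. That is 15.4% of the list, near the 10.0% of all genes. Bank1, a B cell scaffold, had 1968, the inhibitory receptor Cd22 1682 and the adaptor Blnk 1658. The median percentile was 81.7. The chemokine receptor Cxcr5 read 170 and was called absent. Cd79b ranked 1145 here and between 1015 and 1613 over the 3 arrays. Among plasma cell markers the antibody joining chain Jchain led with 4177, then the secretory transcription factor Xbp1 with 1995 and the repressor Prdm1 with 1247, and Sdc1 was called absent.

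Monocyte markers were spread widest. Of 25, 21, or 84.0%, were called present and 8, or 32.0%, were in the brightest decile. All genes had 62.5% and 10.0%. The median percentile of the list was 81.9. Lyz2 had 19338, the Fc receptor chain Fcer1g 12738, the transcription factor Cebpb 8198, the protease Ctss 5168 and the signalling adaptor Tyrobp 4929. The given marker Cd14, the endotoxin coreceptor, read 1330 at rank 2468. The transcription factor Cebpa with 247, the chemokine receptor Ccr2 with 144, the macrophage pore protein Mpeg1 with 107 and the haemoglobin scavenger receptor Cd163 with 65 were not called present. These genes stood higher on the other arrays: the brightest decile held 60.0% of them in the downhill group and 56.0% in the uphill group, against 32.0% here. Cd14 ranked 567 and 689 there.

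Neutrophil markers were held by few genes. All 12 were called present, but only S100a9 and S100a8 were in the brightest decile, with 19855 and 11312. Monocytes express both as well. The decoy receptor Il1r2 came next with 1490, and the granule protease Mmp8 read 687.

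Red cell markers ranked lowest of the 6. Of 29, 15 were called present and only Epb41, a membrane skeleton protein also made by other cells, was in the brightest decile, with 5854. The membrane glycoprotein Gypc had 1587, the transferrin receptor Tfrc 1458 and the ammonium channel Rhag 796. The alpha globin gene Hba-a3 had 1548 and was called absent. Others not called present included Alas2, Tmod1, Hbq1b, Ahsp, Kel, Car1, Hbe1, Epb42, Ank1, Klf1, Add2 and Sptb, among which Alas2, the first enzyme of haem synthesis in red cells, read 459 and the spectrin chain Sptb 115. The main globin probe sets carry several symbols and so stand outside the ranking. All 5 were called present, 3 for Hba-a2 with 6008, 5707 and 3554 and 2 for Hbb with 1996 and 1111. These shared globin rows thus read well above the median gene, which had 362.22, while the globin genes Hbq1b with 346 and Hbe1 with 200 lay below it. The brightest Hba-a2 and Hbb rows read 3998 and 1339 on the downhill array and 33326 and 26533 on the uphill array. Of the 29 listed members 12 lay above the median gene. The 15 called present are 51.7%, against 62.5% of all genes.

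**Figure D3:**
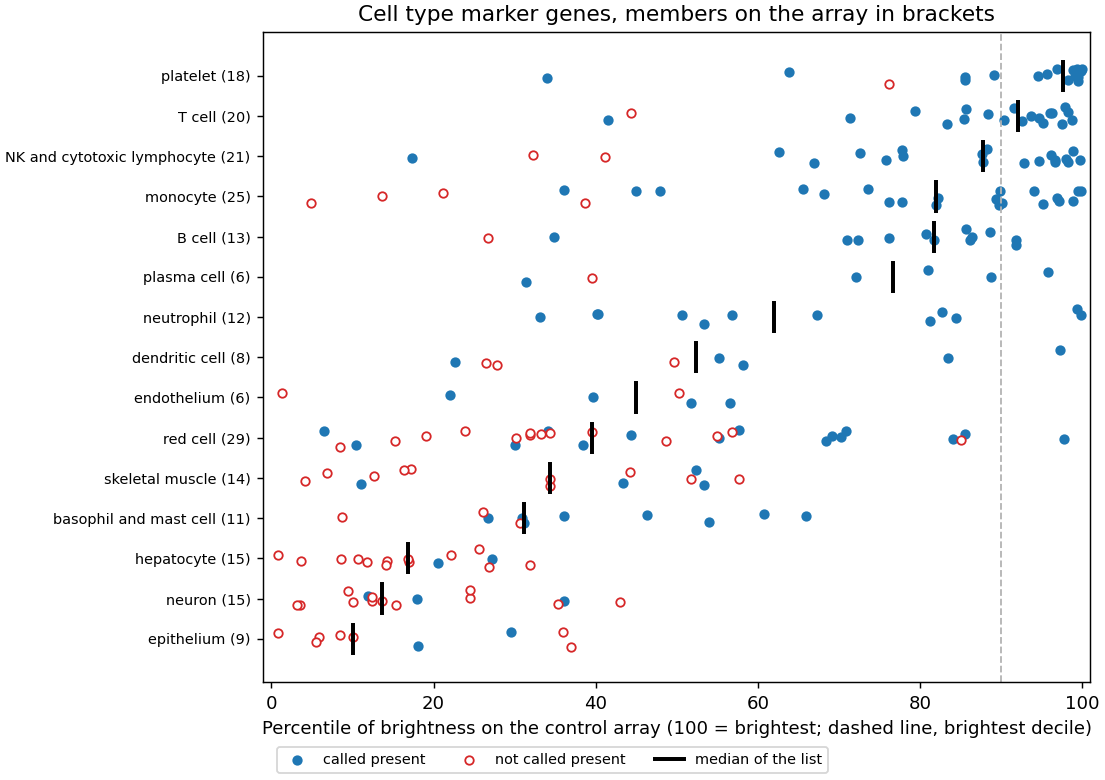
Percentile of brightness of each marker gene in 15 cell type lists on the control array, with filled points for members called present, open points for the others and a bar at the list's median. Platelet and T cell medians lie at 97.6 and 92.1, and those of hepatocyte, neuron and epithelium lists at 16.9, 13.6 and 10.1. The endothelium and skeletal muscle medians are higher, at 44.9 and 34.3.

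Markers of cells outside the blood were taken as a floor, though not all of their lists lay low. Of 59 markers of liver, nerve, skeletal muscle, endothelium and epithelium, 15, or 25.4%, were called present, against 62.5% of all genes. In the endothelium list 4 of 6, or 66.7%, were called present. Its median percentile was 44.9, above the 39.5 of the red cell list, and that of skeletal muscle was 34.3. The brightest of the 59 was the muscle troponin Tnni2 with 473, itself called absent. Of all genes, 42.3% exceeded that value. Among the lineage markers 17 of 18 platelet, 18 of 20 T cell, 11 of 13 B cell, 18 of 21 NK and cytotoxic, 18 of 25 monocyte and 9 of 29 red cell genes exceeded it. Of 8 dendritic cell markers 5 were called present, the same 62.5% as over all genes, and the median percentile was 52.4. Cd83, an activation marker, had 5337, the transcription factor Tcf4 1418 and the integrin chain Itgae 482. Basophil and mast cell markers reached only 650, for the histamine-forming enzyme Hdc.

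The detection call and the intensity overlapped broadly. In the brightest decile 1388 of 1389 genes were called present, and in the dimmest 167 of 1390. The brightest gene not called present was LOC679475 with 2549, and Gba3 was called present at 7.43. Genes of like intensity, such as Cd4 with 299 and Cd28 with 272, could thus carry different calls.

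**Figure D4:**
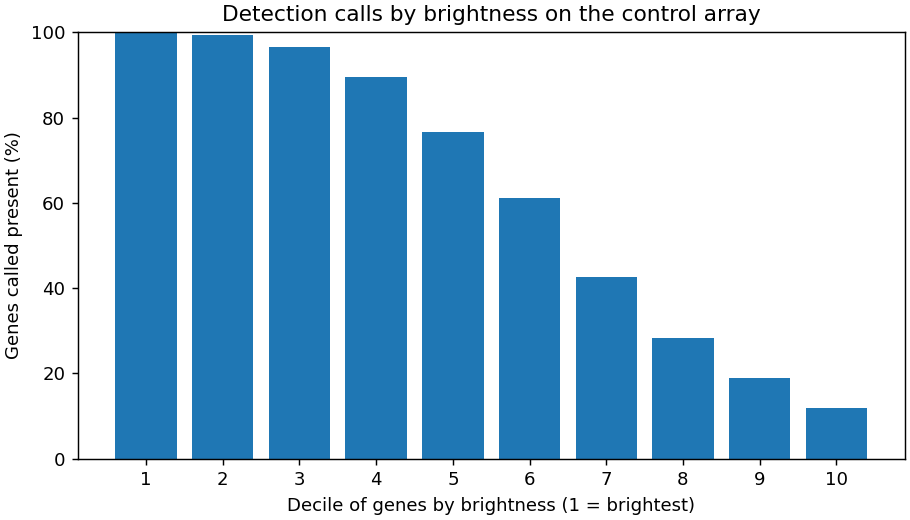
Share of genes called present, in percent, in each decile of the genes ordered by brightness on the control array, with the brightest as decile 1. The share falls from 99.9% through 76.7% in decile 5 to 18.9% in decile 9 and lower still in decile 10.

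Immediate early genes, which cells switch on within minutes of a stimulus, were bright on an array from control rats. All 33 were called present, against 62.5% of all genes, and 23 were in the brightest decile, which holds 10.0% of all genes. The median percentile was 95.6. Fos and Tnfaip3 were on the list but have no probe set with a single symbol, so they are not counted. Jund, an AP-1 subunit, had 11452, Nfkbia, the inhibitor of NF-kappa-B, 10780 and Rgs1, a regulator of G protein signals, 10576. The activation marker Cd69 had 9693, the phosphatase Dusp1 9278, Jun 4677 and Egr1 2968. Some members, such as Klf2, Btg2 and Zfp36, are known to be high in quiescent lymphocytes. The labels call the group control and do not say that the cells were at rest, nor how long they were handled before lysis, and the part of handling was not tested.

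A few single genes of secreted signals were bright, while most were dim. Of 31 chemokine genes, 14 were called present and 5, or 16.1%, were in the brightest decile against 10.0% of all genes, and the median percentile was 36.1. The 5 were Pf4, Ccl5, Ccl3 with 7451, Ccl4 with 7059 and Ccl6 with 4058. Of 23 interleukin genes, 7 were called present, and the inflammatory cytokine Il1b with 7295 alone was in the brightest decile, followed by Il16 with 1250 and Il15 with 1085. The median percentile of the interleukin genes was 23.5. Their receptors ranked higher, with a median percentile of 69.7. Of 20 interleukin receptor genes, 15 were called present, to be read against 62.5% of all genes, and the shared chain Il2rg had 4327. Cxcr4, the receptor that holds blood cells in the marrow, had 13510, while the next chemokine receptor, Ccr6, had 854. Of 22 interferon-stimulated genes, 20, or 90.9%, were called present and 7, or 31.8%, were in the brightest decile. Over all genes the shares were 62.5% and 10.0%. The brightest were Ifi27 with 6052, the antiviral GTPase Mx1 with 4646 and the transcription factor Irf7 with 4030.

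Families of other tissues were mostly at the dim end. None of 13 vomeronasal receptor genes, 2 of 19 olfactory receptor genes, 2 of 26 keratin genes, 4 of 37 collagen genes and 10 of 88 voltage-gated ion channel genes were called present. None of the members of these families was in the brightest decile. Of 54 cytochrome P450 genes 11 were called present, and Cyp2s1 with 3054 alone was in the brightest decile. Among the channels, Kcns3, a silent potassium channel subunit, had 1904, and Kcnn4, the calcium-activated potassium channel of lymphocytes and red cells, had 1344.

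Promoters differed with brightness. The ratio of observed to expected CpG over the 300 bases around the start, high in the CpG islands of widely used genes, had a median of 0.82 in the brightest decile and 0.44 in the dimmest, against 0.73 over all 11021 matched promoters. Ribosomal protein genes had 0.86 and translation factors 0.89. The 6 lineage lists were low, the bright platelet list and the dim red cell list alike, with medians of 0.22 for platelet, 0.24 for monocyte, 0.26 for NK and cytotoxic, 0.31 for red cell, 0.35 for T cell and 0.37 for B cell genes, near the 0.26 of hepatocyte and 0.20 of skeletal muscle and of neutrophil genes. Other lists of cell types were higher, with 0.68 for dendritic cell, 0.63 for plasma cell and for epithelium, 0.59 for neuron and 0.50 for the second platelet list. Of the motifs, GGGCGG, the core of Sp1 sites, stood in 63.2% of promoters of the brightest decile and 39.3% of the dimmest, and TTCCGG, the core of ETS sites, in 25.7% and 7.83%, with the highest share, 31.5%, in decile 4. TATAAA stood in 8.36% and 14.0%, but without an even trend, since its share was lowest in decile 2 with 5.01% and reached 15.9% in the 69 matched promoters of the 100 brightest genes. CCAAT with 35.3% and 33.3% and CTTTCC with 25.8% and 25.5% differed little, and AGATAA had 5.72% and 9.57% and TGATAA 5.11% and 6.77%. The median GC content was 62.0% in the brightest decile and 54.3% in the dimmest, and its part in the motif shares was not tested.

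**Figure D5:**
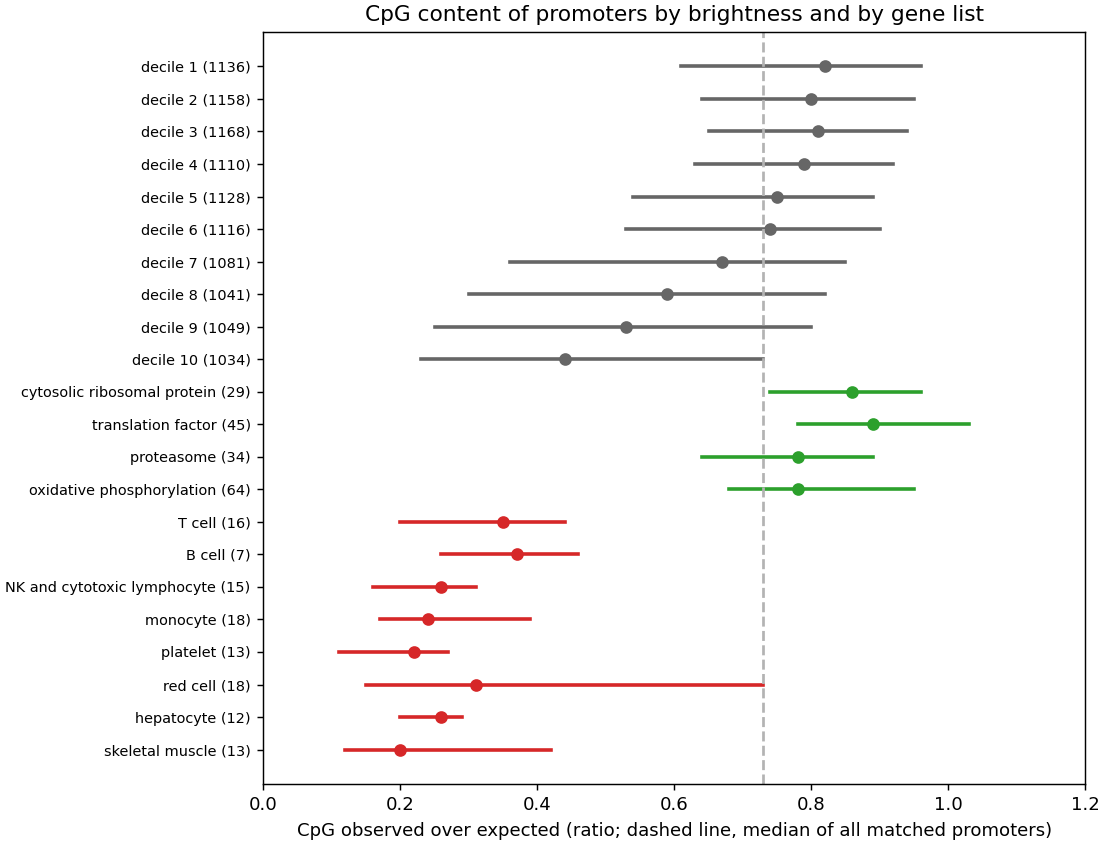
Ratio of observed to expected CpG in promoters, with a point for the median and a line from the first to the third quartile, for deciles of genes by brightness on the control array (grey), 4 families used by most cells (green) and 8 of the cell type lists (red), with the number of promoters in brackets. Medians fall from 0.82 in decile 1 to 0.44 in decile 10, and the platelet list has 0.22.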

How the data were processed

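Per the labels' protocols, biotinylated cRNA was made from 100 ng of total RNA. The deposited matrix gives an intensity per probe set and array, normalized by the authors with RMA per the submitters' processing notes, and a detection call by an unnamed algorithm. Each deposited intensity is linear, where RMA usually gives log2, so the authors may have rescaled it. Of 31099 rows, 57 were controls, 19628 had 1 symbol, 800 several and 10671 none. Symbols were updated by Entrez number to RefSeq names (GRCr8), with 19192 rows matched and 2874 renamed. Genes were ranked on the control column with Python 3.11.15 and pandas 2.3.3, and the ranking code was tested on simulated data.

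The text names the 30 brightest genes, the 5 brightest and every member not called present of each lineage list, and the given markers. It also names the 3 brightest of some other lists, the 5 genes whose probe sets differ most, and the genes either side of rank 100. A gene that meets the rule is not reported here by name, though its list counts include it. Genes named beyond this rule were chosen after their values were seen. The members and lists were chosen with earlier results of these data known. The lists of mitochondrial genome, CD antigen, further platelet, blood transcription factor and reference genes were drawn up after the ranks had been seen, and name patterns of the S100, integrin and translation factor lists were then corrected. The promoter features, the run length of 6, the motifs and the printed genes were also chosen after the ranks had been seen. The first search used 6 motifs, and TGATAA was added later. A TATAAA placed from -40 to -16, and a C as first base, were looked at too, and held in 1.86% and 29.4% of all matched promoters, and in 2.02% and 30.0% of those of the brightest decile. Promoters of 11021 of 13893 genes matched.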

Additional observations from a re-analysis of the deposited data

Results flagged for a closer look

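Signal also lay in probe sets that the ranking leaves out. Rows with several gene symbols brighter than the gene at rank 100 numbered 61, led by a row for Fth1, the ferritin heavy chain, and 2 uncharacterised loci, whose 34067 exceeded every ranked gene. A row for Tpt1, a translationally controlled protein, read 25583. Rows with no gene symbol brighter than the gene at rank 100 numbered 7, and the brightest of these read 13513. Both kinds hold signal outside the ranking, and which of several genes gives the signal of a shared row was not tested.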

How the results depend on the processing

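Of 119 values from 9 alternatives over 14 quantities, 111 stayed within the exact 95% binomial interval of the reported share and 8 moved. That interval counts genes and measures no spread between rats. It is wide for short lists, as with 1.92% to 45.4% for B cell markers in the brightest decile, so staying within it says little. In 1 alternative the values deposited with the series replaced the matrix, and as both are identical its result was fixed in advance. With symbols as deposited, 0.0% of red cell markers were in the brightest decile against 3.45%, and the list then held 24 members against 29. With rows of several symbols kept, 58 of the 100 brightest genes were ribosomal protein genes against 33. Genes called present were 61.5% (downhill) and 63.5% (uphill) against 62.5%. Monocyte markers in the brightest decile were 60.0% (downhill) and 56.0% (uphill) against 32.0%, and red cell markers called present 79.3% on the uphill array against 51.7%. Ranked among present genes alone, 0.0% of B cell markers were in the brightest decile against 15.4%. The cause of these shifts was not tested, except that 3 settings change what is counted by construction. The several-symbol and present-only rankings hold other rows, and with deposited symbols the red cell list holds fewer members. No paired analysis was possible because each group has 1 array, and for the same reason no replicate could be left out.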

Other observations

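Genes named as CD antigens and blood transcription factors were ranked after the lists above had been seen. Of 54 CD antigen genes, 45, or 83.3%, were called present and 21, or 38.9%, were in the brightest decile. All genes had 62.5% and 10.0%. Beside Cd74 and Cd9, the activation marker Cd69 had 9693, the leukocyte tetraspanin Cd53 8842 and the adhesion ligand Cd48 6425. Of 19 transcription factors, 17, or 89.5%, were called present, against 62.5% of all genes. Cebpb of myeloid cells had 8198, Tal1 of megakaryocytes and red cell precursors 8175 and Ets1 of lymphocytes 8046, with Nfe2 of megakaryocytes at 5406. Klf1, the red cell factor, read 156 and was called absent.

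Genes often used to normalize expression spanned much of the ranking. B2m read 29969 and Actb 20609, whereas Hprt1 of purine salvage had 3368, the lysosomal enzyme Gusb 673 and the general transcription factor Tbp 437. The highest of the 3 arrays exceeded the lowest by 1.04-fold for Hprt1, 1.06-fold for B2m and 1.32-fold for Gusb.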
